A study of Mus musculus with 9 samples.

Results

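The genes described here are 6 that mark inhibitory interneurons of the olfactory bulb: Gad1, Gad2, Slc32a1, Calb1, Calb2 and Pvalb. They were chosen by gene symbol, and each was found on exactly 1 probe set, giving 6 genes of 21154 distinct symbols on 21367 probe sets tested. Clariom S arrays measured RNA of the olfactory bulb after 7 days of whole-body inhalation in ICR mice, which are outbred; the mice were male and 8-week-old. The 3 groups had 3 arrays each: vehicle (1% Tween 80, a detergent), 1% linalyl acetate and 10% linalyl acetate. Linalyl acetate is a fragrant ester of lavender oil, and all mice were housed singly, acclimated for 7 days and given a tail suspension test, which scores immobility, after 30 min of inhalation. The labels leave unstated whether Tween 80 was also in the linalyl acetate aerosols. Groups follow the sample titles. The description fields of 5 arrays name oral and injected treatments instead, and that of vehicle replicate 3 names an injection of lipopolysaccharide. Nothing in the labels says that each array was 1 mouse, so p-values measure the spread between these samples.

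Most neurons of the olfactory bulb are inhibitory. Granule cells and periglomerular cells release the transmitter GABA onto mitral and tufted cells, the excitatory output neurons, and new interneurons join the bulb throughout adult life. Gad1 and Gad2 encode the enzymes that make GABA from glutamate, and Slc32a1 encodes the transporter that loads GABA into synaptic vesicles. Calb1 (calbindin), Calb2 (calretinin) and Pvalb (parvalbumin) encode calcium-binding proteins of the EF-hand family, which mark separate interneuron classes in the bulb. Calb1 and Pvalb are also expressed in forebrain neurons outside the bulb, Calb1 in cortical and striatal projection neurons and Pvalb in cortical interneurons. Tbr1 encodes a T-box transcription factor of excitatory neurons, found in cortex and anterior olfactory areas and also in mitral and tufted cells.

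Against the 5222 negative control probe sets, the members fell into separate ranges. The control median was 6.87 to 7.12 log2 units per array and the 95th percentile was 10.78 to 11.11. Gad1, Gad2, Slc32a1 and Calb2 lay above that percentile on all 9 arrays, with lowest values of 14.90, 13.18, 12.25 and 14.85. Calb1 and Pvalb lay below it on all 9 arrays, with highest values of 9.66 and 8.15. On the 6 arrays with less Tbr1, Calb1 was at 6.29 to 7.02 and Pvalb at 6.25 to 7.03, close to the control medians, so the sizes of their differences are uncertain. Pvalb was also close to the control medians on 1% replicate 2 (7.25) and 10% replicate 2 (7.13).

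The arrays carried unequal amounts of Tbr1. Its signal was 9.54, 9.70 and 12.11 log2 units in vehicle replicates 1, 2 and 3. It was 10.52, 12.32 and 10.99 in the 1% arrays and 9.52, 12.54 and 9.75 in the 10% arrays. Vehicle replicate 3, 1% replicate 2 and 10% replicate 2 thus stood apart, at 12.11 to 12.54 against 9.52 to 10.99 on the other 6 arrays, with 1 such array in each group. Tbr1 lay below the control 95th percentile on 5 of those 6 arrays, so its differences among them are uncertain in size. The 3 that stood apart are called the Tbr1-rich arrays below. They were picked by a measured value and are not a group of the study.

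The promoters of the genes for GABA synthesis and loading are shown because these 3 genes share the GABA pathway, and each was at its group's lowest value on the Tbr1-rich array; of the 3, Gad1 passed the test given below. Each stretch is the 250 bases before the annotated start, from RefSeq on GRCm38.p6, plus strand. Capitals mark the E-box letters CANNTG, which basic helix-loop-helix factors can bind, and the GC-box letters GGGCGG or CCGCCC, the same motif on the other strand. CANNTG reads the same on both strands, and no marked motifs overlap. The windows lie at chr2:70561879-70562128 for Gad1, chr2:22622077-22622326 for Gad2 and chr2:158610508-158610757 for Slc32a1.
Gad1: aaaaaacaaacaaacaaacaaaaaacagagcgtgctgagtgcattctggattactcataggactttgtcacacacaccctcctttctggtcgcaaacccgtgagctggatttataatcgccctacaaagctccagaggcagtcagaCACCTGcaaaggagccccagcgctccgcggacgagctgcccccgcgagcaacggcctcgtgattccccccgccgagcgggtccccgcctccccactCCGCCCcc
Gad2: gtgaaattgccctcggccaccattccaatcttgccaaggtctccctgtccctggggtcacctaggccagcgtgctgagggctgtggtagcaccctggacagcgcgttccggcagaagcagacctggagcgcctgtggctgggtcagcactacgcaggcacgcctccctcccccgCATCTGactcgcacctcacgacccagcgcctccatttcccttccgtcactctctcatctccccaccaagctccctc
Slc32a1: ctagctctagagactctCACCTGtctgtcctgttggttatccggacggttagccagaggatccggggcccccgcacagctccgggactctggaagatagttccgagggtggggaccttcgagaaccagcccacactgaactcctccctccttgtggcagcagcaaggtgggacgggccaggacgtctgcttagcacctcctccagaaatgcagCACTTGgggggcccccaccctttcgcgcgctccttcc
Gad1 held 1 CANNTG and 1 GC box, Gad2 held 1 CANNTG and Slc32a1 held 2 CANNTG. Of 32851 promoter windows of this length, 66.2% held CANNTG and 32.7% held GGGCGG on either strand. The letters TAATTA, a core that homeodomain factors such as the Dlx proteins can bind, were in none of these 3 windows and in 4.84% of all windows. These matches describe the letters only.

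The first question was whether inhaled linalyl acetate changed the level of these genes. No change was detectable: 0 of 6 members passed an adjusted p of 0.05 in any of the 3 comparisons between groups. No member had an unadjusted p under 0.05, and none had groups that did not overlap. Over all tested genes, limma called 0% at the adjusted threshold in each comparison. At an unadjusted p under 0.05 it called 3.42% for 1% against vehicle, 3.78% for 10% against vehicle and 3% for 10% against 1%. The groups did not overlap for 9.22%, 7.46% and 7.1% of all genes in those comparisons.

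**Figure D1:**
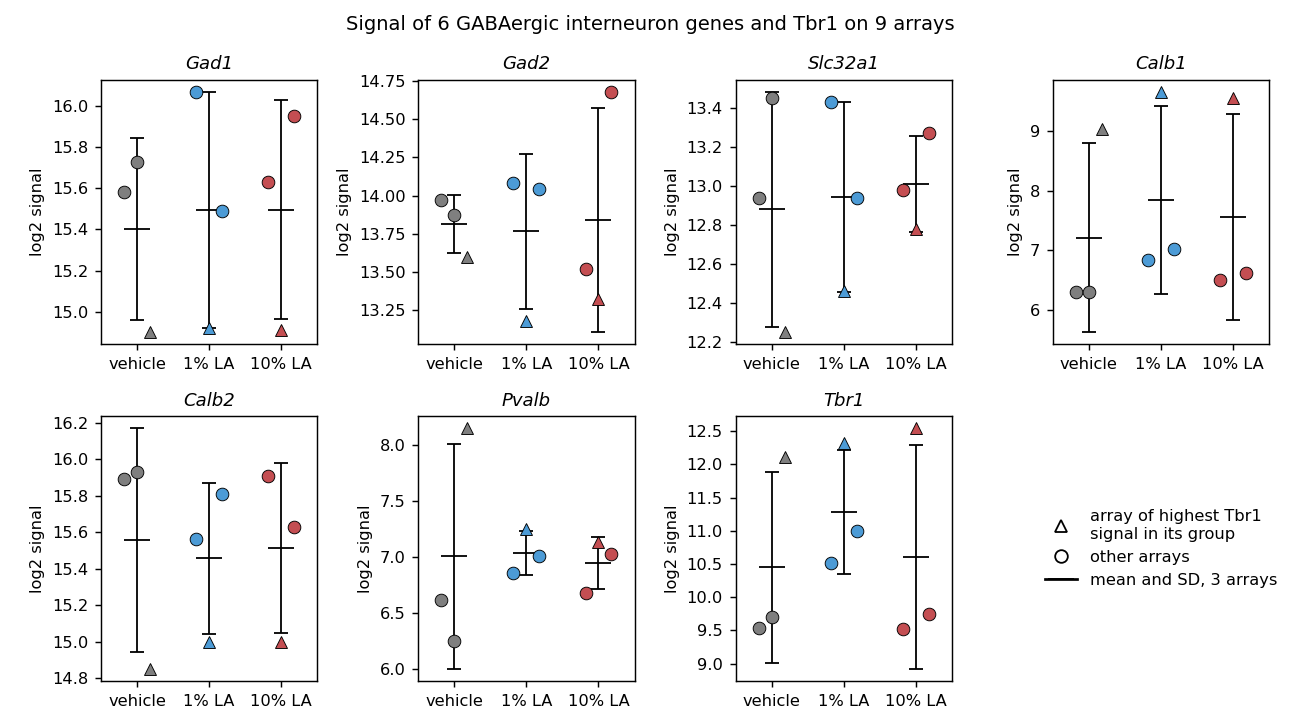
Log2 signal of the 6 members and Tbr1 on each of the 9 arrays, grouped as vehicle, 1% and 10% linalyl acetate (LA). Triangles mark the array of highest Tbr1 signal in each group, and bars give the mean and SD of 3 arrays. The triangle is the lowest point of its group for Gad1, Gad2, Slc32a1 and Calb2 and the highest for Calb1 and Pvalb.

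Gad1 (probe set TC0200001023.mm.2), whose product makes most basal GABA, had 15.58, 15.73 and 14.90 log2 units in vehicle replicates 1 to 3, 16.07, 14.92 and 15.49 in the 1% arrays and 15.63, 14.91 and 15.95 in the 10% arrays. Each group held 1 array near 14.9, and the groups overlapped almost fully. Gad1 averaged 15.49 ± 0.58 on 1% arrays against 15.40 ± 0.44 on vehicle arrays (SD, n = 3 arrays each). The difference was 0.09 ± 0.34 (SE) with a 95% interval of -0.66 to 0.84. On 10% arrays Gad1 averaged 15.50 ± 0.53 (SD, n = 3), which differed from vehicle by 0.09 ± 0.34 (-0.65 to 0.84).

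Gad2 (TC0200000347.mm.2), the enzyme concentrated at synaptic terminals, had 13.97, 13.87 and 13.60 log2 units in vehicle, 14.08, 13.18 and 14.04 in 1% and 13.52, 13.32 and 14.68 in 10% replicates 1 to 3. The 10% arrays gave both the highest of the 9 values and 2 of the 3 lowest. Its difference from vehicle was -0.05 ± 0.34 (SE; -0.80 to 0.71) at 1% and 0.03 ± 0.34 (-0.73 to 0.78) at 10%. Slc32a1 (TC0200002437.mm.2) had 12.94, 13.45 and 12.25 in vehicle, 13.43, 12.46 and 12.94 in 1% and 12.98, 12.78 and 13.27 in 10% replicates 1 to 3. Vehicle arrays gave both its highest and its lowest value. Slc32a1 differed from vehicle by 0.06 ± 0.31 at 1% (-0.62 to 0.75) and by 0.13 ± 0.31 at 10% (-0.56 to 0.82).

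Calb2 (TC0800002920.mm.2), a marker of many periglomerular and superficial granule cells, had 15.89, 15.93 and 14.85 log2 units in vehicle, 15.56, 15.00 and 15.81 in 1% and 15.91, 15.00 and 15.63 in 10% replicates 1 to 3. As for Gad1, the low array of each group was the Tbr1-rich one. The differences from vehicle were -0.10 ± 0.33 (SE; -0.83 to 0.63) at 1% and -0.04 ± 0.33 (-0.77 to 0.69) at 10%.

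Calb1 (TC0400000138.mm.2), a marker of another periglomerular class, varied most. It had 6.29, 6.29 and 9.04 log2 units in vehicle, 6.83, 9.66 and 7.02 in 1% and 6.50, 9.55 and 6.62 in 10% replicates 1 to 3. In each group 1 array was far above the other 2, and it was again the Tbr1-rich array. Calb1 averaged 7.84 ± 1.58 on 1% arrays against 7.21 ± 1.59 on vehicle arrays (SD, n = 3 arrays each), a difference of 0.63 ± 0.98 (SE). With a 95% interval of -1.53 to 2.79, a difference of that size was not detectable with these arrays. At 10% the mean was 7.56 ± 1.73 (SD, n = 3) and the difference from vehicle 0.35 ± 0.98 (-1.81 to 2.51). Without the 3 Tbr1-rich arrays the differences were 0.64 ± 0.20 (SE) at 1% and 0.27 ± 0.20 at 10%. Their adjusted p in limma was 0.793 and 0.934, and their unadjusted p 0.0114 and 0.208. On the 6 arrays then left, Calb1 was close to the control medians.

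Pvalb (TC1500001827.mm.2), which marks interneurons of the external plexiform layer in the bulb, had 6.62, 6.25 and 8.15 log2 units in vehicle, 6.86, 7.25 and 7.01 in 1% and 6.68, 7.13 and 7.03 in 10% replicates 1 to 3. Only vehicle replicate 3 exceeded 7.25. Its difference from vehicle was 0.03 ± 0.39 (SE; -0.82 to 0.89) at 1% and -0.06 ± 0.39 (-0.91 to 0.79) at 10%. Without vehicle replicate 3 these were 0.61 ± 0.22 and 0.51 ± 0.22, at adjusted p of 0.904 and 0.943 in limma and unadjusted p of 0.0187 and 0.0394.

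**Figure D2:**
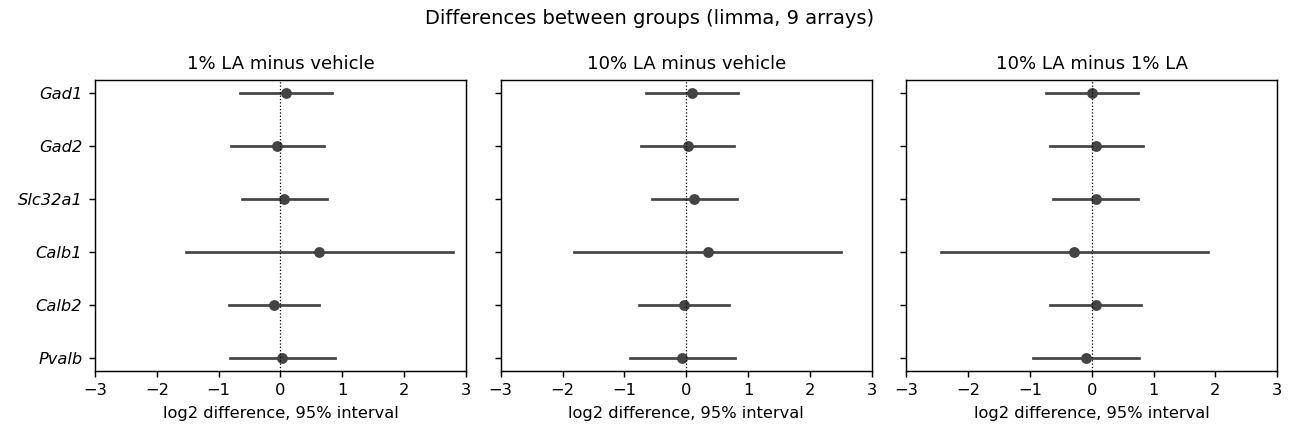
Log2 differences of the 6 members between groups with 95% intervals from limma, for 1% minus vehicle, 10% minus vehicle and 10% minus 1% linalyl acetate. Every interval spans 0, and those of Calb1 are the widest, at -1.53 to 2.79, -1.81 to 2.51 and -2.44 to 1.88.

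Between doses, 10% minus 1% linalyl acetate, the 6 differences ran between -0.28 for Calb1 and 0.07 for Gad2 and Slc32a1. Apart from Calb1, no difference in the 3 comparisons exceeded 0.13 in size, with SE of 0.31 to 0.39 and intervals within -0.95 to 0.89. Every adjusted p in limma was 0.998 or higher, and the smallest unadjusted p of the 18 member values was 0.535 in limma, for Calb1 at 1% against vehicle. The authors' deposited table gives fold changes of at most 1.56 in size for these genes and p-values of 0.5405 to 0.938. In 5 of its 12 member values the sign of the fold change is opposite to the difference of means given here.

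The members varied within groups more than most genes did. Their pooled within-group SD stood at the 92.9th percentile of all genes for Slc32a1, the 94.7th for Calb2, the 95.3rd for Gad1, the 95.7th for Gad2, the 97.4th for Pvalb and the 99.8th for Calb1. The median within-group SD of all genes was 0.26 log2 units.

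The wider GABA and interneuron genes gave no call by treatment either. For none of the lists below did limma call a gene at the adjusted threshold in any comparison between groups. Of 19 measured genes of a list drawn up for GABA breakdown, uptake, precursor supply and synaptic anchoring, 8 had higher and 11 lower means at 1% than in vehicle. Their median difference was -0.07 beside 0.00 over all genes. Aldh5a1, which encodes an enzyme of GABA breakdown, differed by -0.73 ± 0.27 (SE) log2 units at 1%, at an unadjusted p of 0.0188 in limma. Dao, on the same list, encodes D-amino acid oxidase, which acts on D-amino acids and not on GABA. It differed by 0.48 ± 0.17 at 1%, but its level lay below the negative control medians.

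Of 20 measured transcription factors of bulb interneurons, 9 had higher and 10 lower means at 1% than in vehicle, and 12 had higher and 8 lower means at 10%. None of these had an unadjusted p under 0.05 in limma against vehicle. Among 22 other interneuron markers, Th, the rate-limiting enzyme of dopamine synthesis and a mark of dopaminergic periglomerular cells, differed by -0.08 ± 0.44 (SE) at 1% and -0.33 ± 0.44 at 10%. Only Slc6a3 in this list had an unadjusted p under 0.05 against vehicle, at 10% (-0.58 ± 0.20, p of 0.0156 in limma). Its mean of 6.11 log2 units lay below the negative control medians. Of 22 other EF-hand genes, 16 had higher and 6 lower means at each dose than in vehicle, with median differences of 0.20 at 1% and 0.11 at 10%, and none had an unadjusted p under 0.05.

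The second question was how the members stood to Tbr1 across arrays. On the Tbr1-rich arrays Gad1, Gad2, Slc32a1 and Calb2 were lower and Calb1 and Pvalb higher than the mean of the other 2 arrays, in each of the 3 groups. In a limma model with group means and Tbr1 signal, 3 of 6 members passed the adjusted threshold, against 1.86% of all genes: Gad1 and Calb2 fell and Calb1 rose with Tbr1. Members and marker lists were chosen with earlier results of these data known, so their counts beside all genes are a description. The members were also correlated with one another over the 9 arrays, so they are not 6 separate results. In the bulk tissue measured here, a changed share of a cell type in the sample and a changed amount of RNA per cell cannot be told apart.

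Gad1 was at 14.90 to 14.92 log2 units on the Tbr1-rich arrays against 15.49 to 16.07 on the others. The Tbr1-rich array differed from the mean of the other 2 by -0.76 in the vehicle, -0.86 in the 1% and -0.88 in the 10% group. Its slope was -0.34 ± 0.07 (SE) log2 units per log2 unit of Tbr1, with an adjusted p of 0.0329 in limma. Gad2 was at 13.18 to 13.60 against 13.52 to 14.68, and these ranges overlapped. Gad2 had a slope of -0.25 ± 0.10 and an adjusted p of 0.357 in limma, so it did not pass. Slc32a1 was at 12.25 to 12.78 against 12.94 to 13.45, with a slope of -0.26 ± 0.08 that did not pass either (adjusted p of 0.18 in limma).

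Calb2 resembled Gad1 in size, at 14.85 to 15.00 on the Tbr1-rich arrays against 15.56 to 15.93 on the others. Its slope was -0.34 ± 0.07 (SE) with an adjusted p of 0.0224 in limma. Calb1 was at 9.04 to 9.66 against 6.29 to 7.02. Here the Tbr1-rich array exceeded the mean of the other 2 by 2.75 in the vehicle, 2.74 in the 1% and 2.99 in the 10% group. Its slope of 1.15 ± 0.09 had an adjusted p of 9.42e-05 in limma. The calbindin and calretinin genes thus lay on opposite sides. On the arrays with less Tbr1, however, Calb1 was close to the negative control medians of 6.87 to 7.12. Calb1 is also expressed in forebrain neurons outside the bulb. Whether its signal on the Tbr1-rich arrays came from periglomerular cells was not tested.

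Pvalb was at 7.13 to 8.15 log2 units on the Tbr1-rich arrays against 6.25 to 7.03 on the others. On 1% replicate 2 (7.25) and 10% replicate 2 (7.13) it was close to the control medians of 6.92 and 6.87. Only on vehicle replicate 3 did Pvalb stand clear of the control median. The Pvalb slope of 0.33 ± 0.10 (SE) did not pass (adjusted p of 0.182 in limma), and it was 0.12 without vehicle replicate 3. In all, 5 of 6 members had ranges that did not overlap between the Tbr1-rich arrays and the other 6, as did 6.86% of all genes, and 6 of 6 slopes had an unadjusted p under 0.05 in limma, against 11.8% of all genes.

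**Figure D3:**
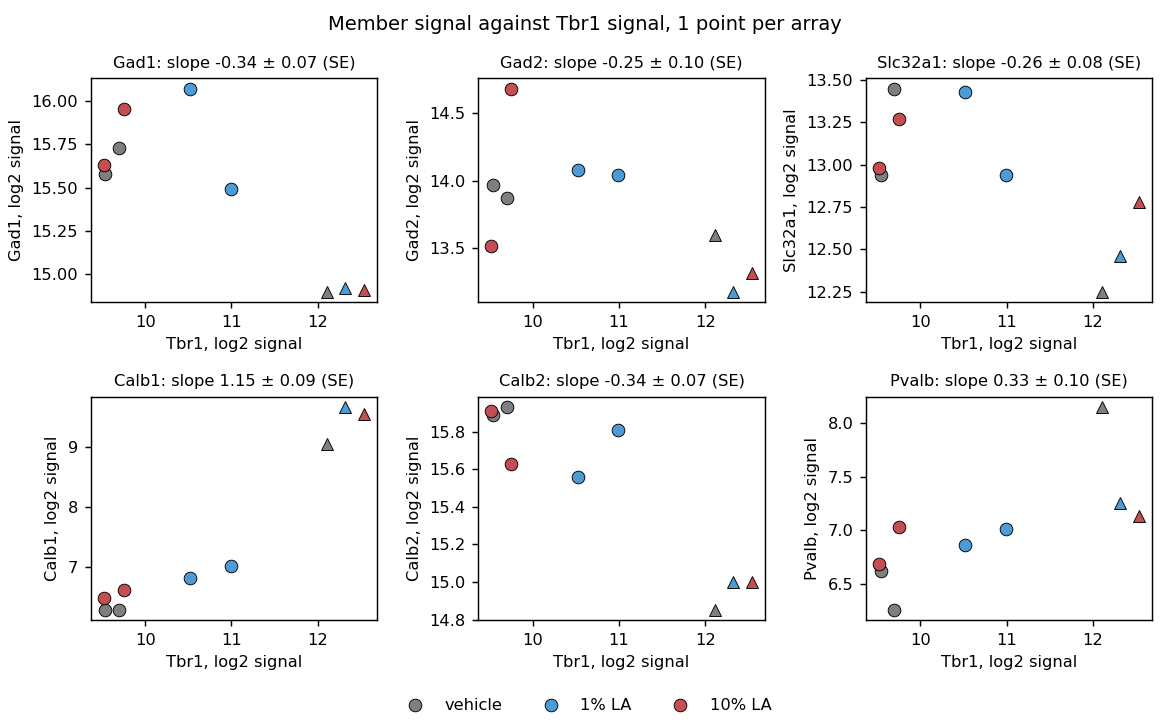
Log2 signal of each member (vertical) against the log2 signal of Tbr1 (horizontal), 1 point per array, coloured by group, with triangles for the array of highest Tbr1 in each group. The 3 triangles lie at 12.11 to 12.54 on the Tbr1 axis, apart from the other 6 arrays at 9.52 to 10.99.

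These slopes rested on the 3 Tbr1-rich arrays. Without them 0 of 6 members and 0 genes passed in limma, and 0 members and 799 genes had an unadjusted p under 0.05. The slopes were then 0.39 for Calb1, -0.58 for Gad1 and 0.20 for Calb2, each at an adjusted p of 1 in limma. The Calb1 call held when any single array was left out, with slopes of 1.05 to 1.26 and adjusted p of at most 0.00256 in limma. Gad1 passed only without 10% replicate 1 (adjusted p of 0.0288 in limma), and reached up to 0.189 when another array was left out. Calb2 passed without 1% replicate 1, 1% replicate 3 or 10% replicate 3, and its adjusted p in limma was 0.0543 to 0.149 without any of the other 6. Taking the mean of a cortex and anterior olfactory list that includes Tbr1 in place of Tbr1 alone, Gad1 had an adjusted p of 0.0658 in limma. Since Tbr1 split the arrays into separate clusters, correlations were tested only within the 6 arrays of lower Tbr1, where 21 relations were examined. Calb1 and Tbr1 had a Pearson's r of 0.91 there (exact permutation p = 0.0111, two-sided; 0.233 after Benjamini-Hochberg adjustment). Spearman's rho was 0.81 (exact permutation p = 0.0722), and r dropped to 0.32 without the 2 arrays farthest from the median. Those were the 2 remaining 1% arrays, at Tbr1 of 10.52 and 10.99, and the permutations ignored group. The relation rested on those arrays and cannot be told apart from a difference between groups. Gad1 had an r of 0.00 with Tbr1 and Slc32a1 one of -0.01 in these 6 arrays, but 0.90 and 0.87 without the 2 farthest arrays, so these values are not firm either. No relation passed the adjustment.

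Among themselves the members formed opposed sets over the 9 arrays, given as a description because the arrays share the clusters above. Pearson's r was 0.90 between Gad1 and Slc32a1, 0.79 between Gad1 and Gad2 and 0.79 between Gad1 and Calb2. It was -0.95 between Calb1 and Calb2, -0.89 between Gad1 and Calb1 and -0.83 between Calb2 and Pvalb. Within the 6 arrays of lower Tbr1, Gad1 and Slc32a1 kept an r of 0.80 (exact permutation p = 0.0833), whereas Gad1 and Calb2 had an r of -0.82 (exact permutation p = 0.0611). The Gad1 and Calb2 value rested on the 2 arrays farthest from the median, since r was 0.93 without them and Spearman's rho was -0.43 (exact permutation p = 0.419).

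The genes most like each member over the 9 arrays were taken from 10036 with a mean signal at or above the median. Those nearest to Gad1 were Gdpd5 (r = 0.988), Ccdc109b (0.970), Kcnd2 (0.969), a potassium channel subunit, and Syt6 (0.968). Itpr1, an intracellular calcium release channel, was the most opposed to Gad1 at -0.961. Nearest to Slc32a1 were Ctbp2 (0.940) and again Gdpd5 (0.933), and nearest to Gad2 were Cdk17 (0.946) and Nxph1 (0.945). The genes most like Calb1 were Slc8a2 (0.994), a sodium-calcium exchanger, Gabbr2 (0.992), a GABA-B receptor subunit, Clmn (0.989) and Nrgn (0.987), a calmodulin-binding protein of forebrain neurons. Nearest to Calb2 were Arhgef6 (0.980) and Nrip3 (0.979), and nearest to Pvalb was Phactr1 (0.950).

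**Figure D4:**
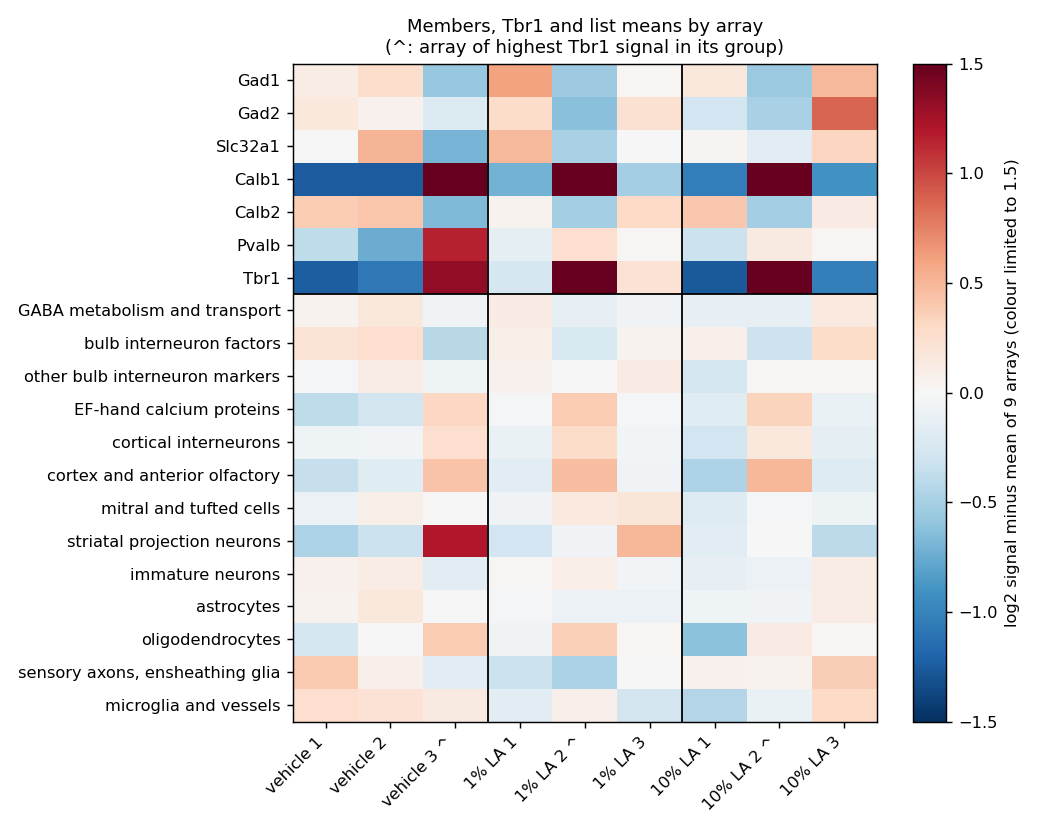
Log2 signal of each member, of Tbr1 and of the mean of each marker list on the 9 arrays, minus its mean over the 9 arrays; blue is lower, red is higher, and colours stop at 1.5. Calb1 and Tbr1 are red and Gad1 and Calb2 blue on vehicle replicate 3, 1% replicate 2 and 10% replicate 2, each marked with a caret.

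Other marker genes of bulb interneurons moved on the side of Gad1 in part. Of 20 measured transcription factors, 5 fell with Tbr1 and 0 rose, with a median slope of -0.21 beside -0.01 over all genes. They were Nr2f2 (-0.52 ± 0.11, SE), Sp8 (-0.40 ± 0.07), Dlx1 (-0.36 ± 0.06), Dlx2 (-0.31 ± 0.07) and Tshz1 (-0.31 ± 0.06), at adjusted p of 0.0141 to 0.0479 in limma. Over all genes 0.304% fell and 1.56% rose with Tbr1. The mean of this list was 9.70 to 9.89 on the Tbr1-rich arrays against 10.17 to 10.40 on the others.

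Of the 22 other interneuron markers, 1 rose and 0 fell. Sst, which encodes somatostatin, was at 13.18 to 13.43 log2 units on the Tbr1-rich arrays against 8.88 to 11.26 on the others, with a slope of 1.53 ± 0.06 (SE) and an adjusted p of 1.48e-06 in limma. Th had a slope of -0.41 ± 0.11 that did not pass (adjusted p of 0.0948 in limma). Of the 19 genes listed for GABA metabolism and transport none passed in limma, 1.0 had a positive and 5.0 a negative slope at an unadjusted p under 0.05, and their median slope was -0.03. Abat, the GABA-degrading transaminase, had a slope of -0.14 ± 0.05 (SE) that did not pass.

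The other EF-hand genes lay on the side of Calb1 in part. Of 22 measured, 14 had positive and 8 negative slopes, and 6 rose with Tbr1 and 0 fell: Caln1 (1.14 ± 0.08, SE), Hpca (1.04 ± 0.08), Cabp1 (0.71 ± 0.10), Hpcal1 (0.48 ± 0.07), Hpcal4 (0.46 ± 0.08) and Vsnl1 (0.40 ± 0.08). These encode neuronal calcium sensor and calmodulin-like proteins, and hippocalcin, the product of Hpca, is abundant in cortex and hippocampus. The median slope of the list was 0.13.

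**Figure D5:**
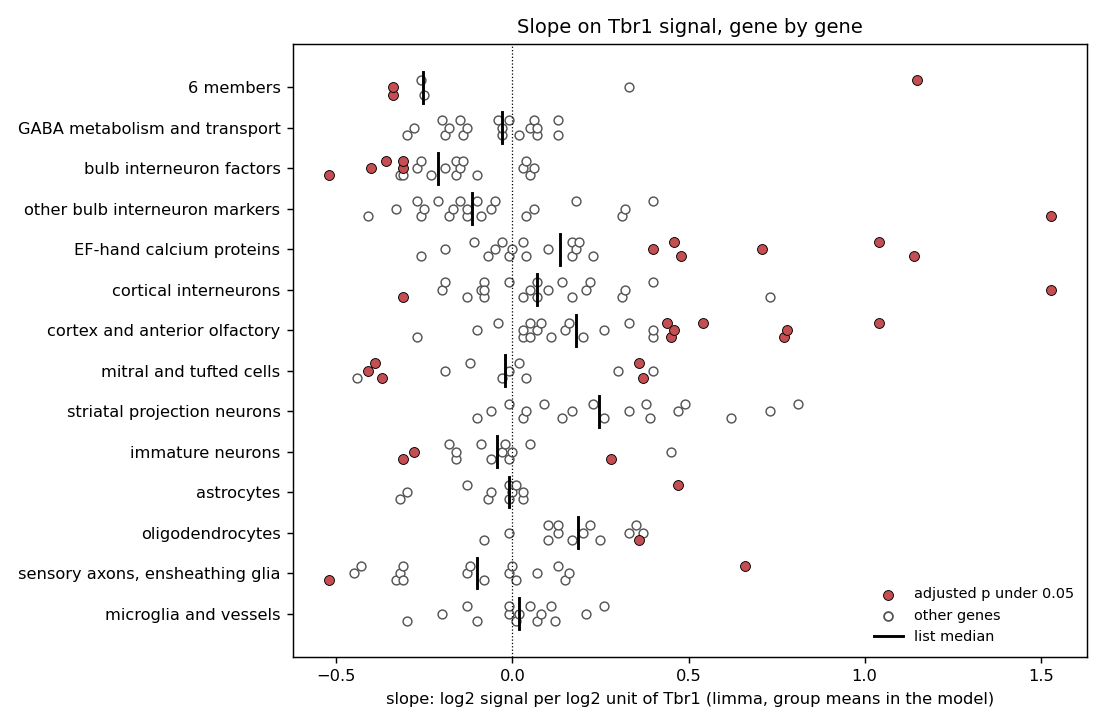
Slope on Tbr1 signal from limma, in log2 units per log2 unit of Tbr1, for the 6 members and for each gene of 13 marker lists. Filled points passed an adjusted p of 0.05 over all genes, and vertical bars are list medians. The interneuron factors have their median at -0.21 and the cortex and anterior olfactory list at 0.18.

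Some markers of other cells also followed Tbr1. Of 24 tested markers of projection neurons of cortex and anterior olfactory areas, 7 rose and 0 fell, among them Neurod6 (1.04 ± 0.11, SE), Neurod2 (0.77 ± 0.10) and Camk2a (0.46 ± 0.06). Their list mean, with Tbr1 itself left out, was 10.57 to 10.62 on the Tbr1-rich arrays against 9.75 to 10.11 on the others. Of 14 tested mitral and tufted cell markers, 2 rose and 3 fell. Cdhr1, a mitral and tufted cell cadherin, fell (-0.39 ± 0.06), and Eomes, a T-box factor of these cells, had a slope of -0.44 ± 0.10 that did not pass (adjusted p of 0.0646 in limma). Of 23 cortical interneuron markers, Sst rose and Ndnf fell (-0.31 ± 0.06). Of 14 oligodendrocyte markers, 1 passed and rose, 12 had positive slopes and 8 of these an unadjusted p under 0.05 in limma, and their list mean was 10.60 to 10.86 on the Tbr1-rich arrays against 9.86 to 10.51 on the others. The part of these other cell types in the slopes of the members was not tested.

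Striatal projection neuron markers followed other arrays in part. None of 18 passed in limma, 9.0 had a positive and 0.0 a negative slope at an unadjusted p under 0.05, and the median slope was 0.24. Drd1, a dopamine receptor gene, had a slope of 0.47 ± 0.18 (SE; adjusted p of 0.315 in limma). Their list mean was 9.71 in vehicle replicate 3 and 9.0 in 1% replicate 3, against 8.04 to 8.51 on the other arrays. Vehicle replicate 3 was also the array of highest Pvalb, at 8.15, whereas 1% replicate 3 had 7.01.

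With Tbr1 held in the model, the treatment comparisons of the members still gave no call. The differences between groups then ran between -0.32 and 0.49 log2 units, with SE of 0.181 to 0.297, against 0.313 to 0.983 without Tbr1 in the model. The lowest unadjusted p in limma was 0.0906, for Calb1 at 10% against 1%.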

How the data were processed

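The authors normalized the arrays with RMA in Transcriptome Analysis Console 4, per the submitters' processing notes, and deposited log2 signal for 22206 probe sets, used here, and a series matrix of the same arrays for 28846, used as an alternative. The authors' deposited comparison tables give p-values and a fold change score with a sign; the tests here do not use them. In the signal table, 27 cells held calendar dates and were decoded. Probe sets with several symbols (836) or none (3) were left out.

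A model of 3 group means over all 9 arrays was fitted in limma 3.58.1 under R 4.3.3, and again with Tbr1 signal as a covariate, with Benjamini-Hochberg adjustment over all tested genes (21367, or 21366 without Tbr1) at 0.05. No filter on dim genes was applied. SE are limma's, with 6 residual and 5.27 prior degrees of freedom (5 and 6.13 with Tbr1 in the model), and the number of arrays (9) limits the precision, with 0.21 as the median SE between groups. Correlations have exact permutation p-values, two-sided, of at least 0.00278. Lists and members were chosen with earlier results of these data known. Named genes are the members, Tbr1, their 4 most and 1 least correlated genes, up to 3 genes per list with the smallest p, and Th, Eomes and Drd1; Nr2f2, Dlx2 (as an interneuron factor), Hpcal1, Hpcal4, Vsnl1 and Abat were added after their values were seen. Predicted genes are not named. Same-numbered replicates of different groups had deviations correlated at -0.16 to 0.28, so numbers were not taken as pairs. The fits were tested on simulated data. Alternatives were each array left out, the 3 Tbr1-rich arrays left out together, other normalizations, filters and spreads, and a replicate block. The arrays' own genome build was not given in the sources used here; promoters are from RefSeq on GRCm38.p6, and 4 of the 6 members matched an entry (Gad1, Gad2, Slc32a1 and Pvalb).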

Additional observations from a re-analysis of the deposited data

How the results depend on the processing

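No member passed the adjusted threshold in any comparison between groups under any alternative: the lowest adjusted p of 360 values was 0.793 in limma, and 3 had an unadjusted p under 0.05. Over all genes the calls, 0 with all arrays, reached 7 for 1% against vehicle and 12 for 10% against vehicle without vehicle replicate 3, 2 without 10% replicate 1 for 10% against vehicle and against 1%, and 1 without 1% replicate 2 for 10% against 1%. Leaving out single arrays thus gave 0 to 7, 0 to 12 and 0 to 2 genes. Without the 3 Tbr1-rich arrays 11 and 12 genes passed against vehicle at 1% and 10%. The cause was not tested.

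Of the 360 member differences, 61 changed sign, all uncalled. Without the 3 Tbr1-rich arrays these were 0.14 for Gad2, -0.01 for Slc32a1 at 1%, -0.07 for Slc32a1 and 0.42 for Pvalb at 10%, and -0.06 for Slc32a1 between doses. With Tbr1 as a covariate they were 0.16 for Gad2, -0.32 for Calb1, 0.18 for Calb2 and -0.24 for Pvalb at 1%, 0.01 for Calb2 at 10%, and between doses -0.23 for Gad1, -0.09 for Gad2, -0.11 for Slc32a1, 0.49 for Calb1, -0.17 for Calb2 and 0.13 for Pvalb. Array weights gave -0.03 for Slc32a1 at 1%, 0.17 for Pvalb at 10% and -0.01 for Gad1 between doses, as did repeated quantile normalization for Gad1. Leaving out single arrays moved the 1% differences over -0.2 to 0.38 for Gad1, -0.2 to 0.25 for Gad2, -0.25 to 0.35 for Slc32a1, -0.28 to 1.55 for Calb1, -0.45 to 0.13 for Calb2 and -0.34 to 0.61 for Pvalb. The 10% differences ran over -0.16 to 0.39, -0.39 to 0.29, -0.18 to 0.42, -0.65 to 1.27, -0.4 to 0.21 and -0.44 to 0.51 in the same gene order. Those between doses ran over -0.28 to 0.3, -0.35 to 0.33, -0.17 to 0.31, -1.28 to 0.63, -0.17 to 0.31 and -0.18 to 0.04.

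The Tbr1 slopes depended more on the arrays. With all arrays 398 genes and 3 members passed. Single arrays left out gave 117 to 352 genes and 1 to 2 members: 117 genes without 10% replicate 2, 232 without 1% replicate 2, 242 without vehicle replicate 3 and 261 without vehicle replicate 1. Without the 3 Tbr1-rich arrays 0 genes and 0 members passed, and the slopes of Gad2 (0.77) and Calb2 (0.20) changed sign. The replicate block gave 154 genes and 1 member, Calb1, with adjusted p of 0.241 for Gad1 and 0.144 for Calb2 in limma; the block changed no call between groups. Calb1 lay near background on the 6 arrays of lower Tbr1, and Pvalb on every array but vehicle replicate 3, which limits the sizes of their changes.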
